A study of Mus musculus with 5 samples.

Results

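Protein tyrosine phosphatases were followed in 5 samples of mouse bone marrow cells sorted as dendritic cell progenitors. The members were all probe sets whose platform gene symbol is Ptpn with a number or Ptpr with a letter, 48 of 12422 probe sets. They represented 32 of 8251 named genes, 18 of the receptor class (32 probe sets) and 14 of the nonreceptor class (16 probe sets). A further probe set fitting the letters, that of Ptprcap, encodes a CD45-associated protein that is no phosphatase and was kept out of all class counts. Per the labels, each sample was total RNA of cells carrying FLT3 and CD11b, hybridised to 1 array. No genotype, strain, age, treatment, pooling or culture is given. All samples formed 1 group, so no condition could be compared. Nothing in the labels says that the samples came from separate animals, so their spread may be partly technical.

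These enzymes remove phosphate from tyrosine through a cysteine in a conserved catalytic domain and so oppose or tune the tyrosine kinases. Receptor-class members span the membrane, and many carry adhesion-type outer domains and a pair of inner phosphatase domains. Nonreceptor members lie in the cytoplasm and are directed by SH2, FERM, PDZ or proline-rich parts. In blood cells CD45 sets the activity of Src family kinases, and SHP-1 is drawn to inhibitory receptors and restrains cytokine signalling in myeloid cells.

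Signals are array intensities after each array was multiplied to a common median of 103.4, and errors are SD over n = 5 samples. A gene was counted as above the limit if all 5 arrays had it over their own median. The arrays came without detection calls, so this is a rank within an array and no proof of expression. Levels of different genes were not compared with each other. A gene with several probe sets was represented by that with the highest mean log2 signal. In bulk RNA, fewer cells of a type and less RNA per cell cannot be told apart.

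The gate and myeloid list, which holds the sort genes Flt3 and Itgam with Csf1r and Mpo, was above the limit in 8 of 8 genes. Over all named genes 44.5% were above it. The marker lists were chosen with earlier results of these data known, so their counts do not test which cells were present. B cell markers were above the limit in 0 of 5 genes and T and NK cell markers in 0 of 6, while 4 of 5 and 3 of 6 exceeded the median on some arrays. Stromal and epithelial markers were above it in 2 of 9 genes. As a sign of RNA quality, the 3' over 5' ratio of actin control probe sets ran from 1.08 to 5.20 and that of transferrin receptor from 3.14 to 16.7.

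Of the 32 phosphatase genes, 10 were above the limit on all 5 arrays, 8 on 1 to 4 arrays and 14 on none. Over all named genes 44.5% were above it on all 5 arrays and 26.7% on none. The median member exceeded the array median on 2 arrays and the median named gene on 4. The 10 genes were Ptpra, Ptprc, Ptpre and Ptprn of the receptor class and Ptpn1, Ptpn2, Ptpn6, Ptpn9, Ptpn18 and Ptpn22 of the nonreceptor class. By class, 4 of 18 receptor genes and 6 of 14 nonreceptor genes were above the limit, and 9 and 5 were above it on no array. The difference between the classes was not tested. At the stricter limit of each array's 75th percentile, 6 of 32 members (18.8%) passed, 2 of them of the receptor class, beside 21.7% of all named genes.

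**Figure D1:**
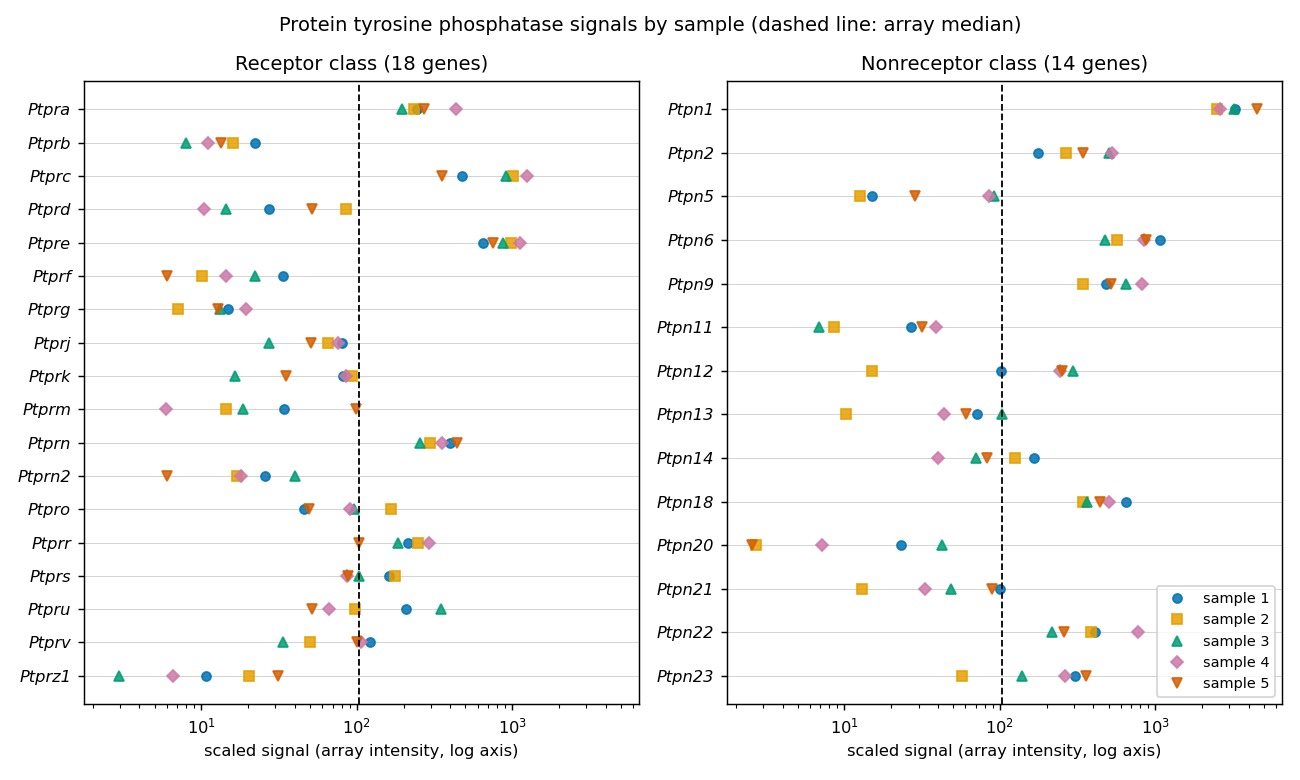
Scaled signal of each member gene (log axis) in samples 1 to 5, by class in order of name, with the array median of 103.4 as a dashed line. All 5 points of 4 receptor and 6 nonreceptor genes lie to the right of the line, and all points of Ptprb, Ptprg and Ptprz1 lie below 31.

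Regulatory sequence was searched for a motif of ETS family factors, to which the myeloid regulator PU.1 belongs. The letters AGGAAGT, or ACTTCCT on the other strand, were looked for in the RefSeq promoter windows (build GRCm38.p6) that run from 250 bases before to 50 after each listed start. Windows were listed for 27 of the 32 member genes, and 6 of these genes (22.2%) held the motif, against 10.7% of all genes with windows. Of their windows, some of which overlap, 8 of 40 (20.0%) held it, against 9.4% of all 32851 listed windows. The sites are shown because they fall in members of both kinds, blood-restricted and neural, and in Ptpre and Ptprg, which are of neither. The motif is in capitals, the text is the gene's own strand from 5′ to 3′, and the coordinates are those of the printed bases.
Ptprc, chr1:138175401-138175429, minus strand: tacttgaattaAGGAAGTaagaagccatt
Ptprc, chr1:138175346-138175374, minus strand: ttttttttttaACTTCCTgcaaagaggac
Ptpn6, chr6:124738882-124738910, minus strand: tggctagggttACTTCCTgggctttgctt
Ptpre, chr7:135605654-135605682, plus strand: aggagtctggtAGGAAGTctattgtcaca
Ptprr, chr10:116177168-116177196, plus strand: ggttttgacaaAGGAAGTtccatttaagg
Ptpn5, chr7:47133647-47133675, minus strand: gagtgaagggcAGGAAGTgaagttagagc
Ptprg, chr14:11553526-11553554, plus strand: gctcacatgttACTTCCTgtatggaggca

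The Ptprc sites lie 110 and 55 bases before a listed start, and that of Ptpn6 187 bases before its start. Of the genes that hold the motif, Ptprc, Ptpn6 and Ptpre were above the limit on 5 arrays, Ptprr was above the median on 4, and Ptpn5 and Ptprg were on none. Of 9 members above the limit with listed windows, 3 held the motif, beside 3 of 18 other members, a difference not tested. Among genes above the limit, the letters were not found in the listed windows of Ptpn1, Ptpn9, Ptpn18, Ptpn22, Ptpra and Ptprn. A match describes the letters only.

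The blood-restricted members, Ptprc, Ptpn6 and Ptpn22, were above the limit in 3 of 3 measured genes. Ptpn7, the fourth gene of that list, was not analysed here. Ptprc encodes CD45, the abundant leukocyte surface phosphatase that removes the inhibitory phosphate of Src family kinases. Its representative probe set had signals of 477, 1015, 913, 1252 and 356 in samples 1 to 5, a mean of 802 ± 376. Samples 2, 3 and 4 were high and samples 1 and 5 low, with a ratio of 3.52 between highest and lowest.

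Ptpn6 encodes SHP-1, whose SH2 domains dock on inhibitory receptors, and whose loss underlies the motheaten mouse. Its signals were 1078, 565, 476, 839.9 and 871, a mean of 766 ± 244, with samples 2 and 3 lowest. Ptpn22 encodes a proline-rich phosphatase that binds the kinase Csk and acts on Src family kinases in lymphocytes. Its signals were 406, 385, 215, 770.2 and 260.3, a mean of 407 ± 218, and sample 4 stood highest. The representative probe sets of Ptprc and Ptpn22 were thus highest in sample 4, and Ptpn6 in sample 1. Of the other Ptprc probe sets, described below, the second was highest in sample 2, at 524 against 237 in sample 4. The third was highest in sample 4. The second Ptpn22 probe set, below the median on every array, was highest in sample 2 at 35.4.

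Ptprcap, which encodes the small membrane protein bound to CD45, was given apart. Its signals were 522, 550.5, 374, 453 and 418, a mean of 464 ± 72.7, above the median on all 5 arrays. Sample 3 was the lowest and sample 2 the highest, at a ratio of 1.47.

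The neural members were above the limit in 1 of 6 measured genes, the exception being Ptprn. Ptprn encodes IA-2, a catalytically inactive protein of dense-core vesicles in neuroendocrine cells. Its signals were 396, 298, 254, 354 and 441, a mean of 349 ± 74.8. All 5 values exceeded the median, and the ratio of highest to lowest was 1.74. Ptprr, which encodes a phosphatase that binds ERK kinases and is known from neurons, had 212, 247, 185, 293 and 103, a mean of 208 ± 71.2. It exceeded the median on 4 arrays, and in sample 5 its 103.1 lay just under the limit of 103.41. The second Ptprr probe set had 16.03, 44.95, 1.88, 41.83 and 39.07, below the median on every array. Without sample 5, 2 of 6 neural members were above the limit, a count that could not fall when a sample was left out. At a limit of the 40th percentile it was likewise 2 of 6, where 51.1% of all named genes passed.

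The other neural members stayed below the median on every array. Ptpn5 encodes STEP, the striatum-enriched phosphatase that acts on ERK and glutamate receptors, and had 14.9, 12.7, 91.3, 84.6 and 28.3. Samples 3 and 4 were the high ones. Ptprd, a LAR-type receptor of synapses, had 27.1, 85.8, 14.4, 10.4 and 51.7. It was highest in sample 2, and its other probe sets reached at most 24.2.

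Ptprz1 encodes a chondroitin sulfate-bearing receptor of glia that binds pleiotrophin. Its signals were 10.7, 20.2, 2.96, 6.53 and 30.9, and those of its other probe sets did not exceed 28.2. Ptprn2, which encodes phogrin, a relative of IA-2, had 25.5, 16.9, 40.3, 18.04 and 5.98. Of general neural markers, 2 of 8 were above the limit, Mbp at 300.4 ± 101 and Tubb3, while Snap25, Nefl and Gfap were below the median on every array. The part of other cells in the Ptprn and Ptprr signals was not tested. Tubb3, named beyond the first 4 genes of its list, was chosen after its values were seen.

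**Figure D2:**
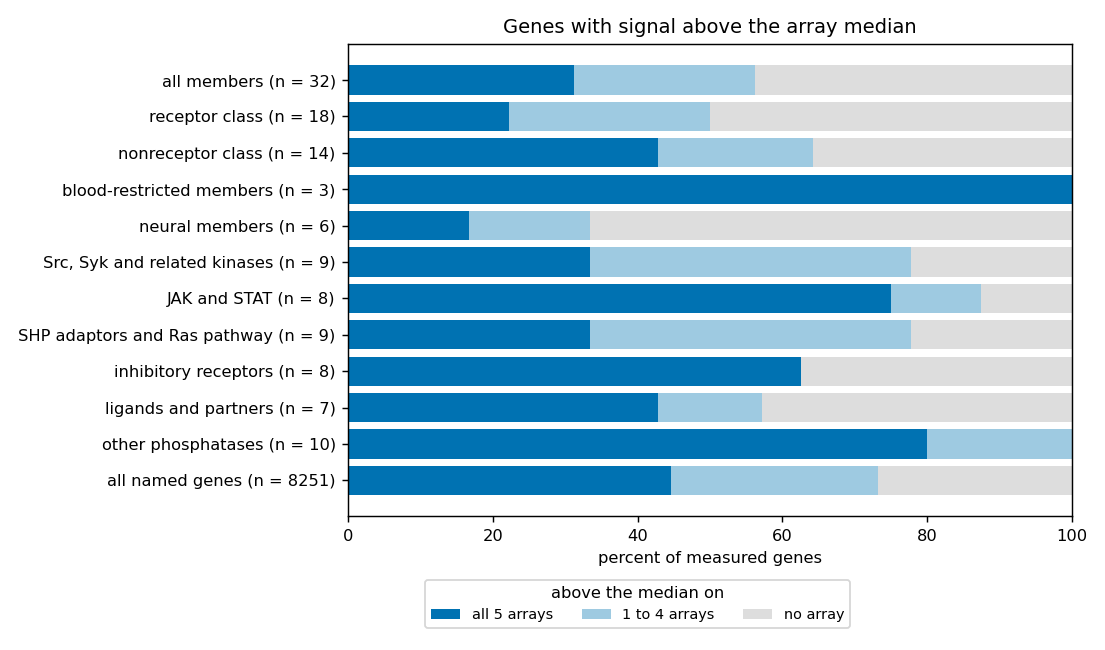
Percent of measured genes above the array median on all 5 arrays, on 1 to 4 or on none, for the phosphatase classes, the pathway lists and all 8251 named genes, with the number of genes in each list. Blood-restricted members reach 100% (3 of 3), neural members 16.7% (1 of 6) and all members 31.2%, against 44.5% for all named genes.

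Among the broadly expressed nonreceptor members, Ptpn1 and Ptpn2 form a pair of closely related enzymes. Ptpn1 encodes PTP1B, an enzyme of the endoplasmic reticulum membrane that acts on the insulin receptor and on JAK kinases. Its signals were 3272, 2507, 3219.9, 2619 and 4522, a mean of 3228 ± 801, with sample 5 highest at a ratio of 1.80 to sample 2. Ptpn2 encodes TC-PTP, which dephosphorylates JAK and STAT proteins, and had 177, 265, 507, 525 and 344, a mean of 364 ± 152. Samples 3 and 4 were high and sample 1 lowest, at a ratio of 2.97.

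Ptpn9 encodes MEG2, a phosphatase of secretory vesicles. Its signals were 482, 344, 652, 816 and 520.1, a mean of 563 ± 179, lowest in sample 2. Ptpn18 encodes a relative of PTP-PEST cloned from haematopoietic cells. It had 647, 342, 362, 505 and 441, a mean of 459 ± 123, lowest in sample 2 again.

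Ptpn11 encodes SHP-2, the SH2-domain partner of SHP-1 that promotes Ras signalling downstream of growth factor receptors in most cell types. Its 1 probe set was below the median on every array, at 27.0, 8.53, 6.86, 39.0 and 31.4. In samples 1 to 3 it was under the floor of 30.0 used for log2 values. A low signal of a single probe set does not show that the transcript is absent.

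Ptpn12 encodes PTP-PEST, which acts on cytoskeletal adaptors such as Cas and paxillin. Its signals were 102, 15.1, 294, 243 and 251, above the median on 3 arrays, and sample 2 stood far below the others. Ptpn23 encodes HD-PTP, an endosomal sorting protein with little catalytic activity. It had 306, 56.9, 138, 263 and 358, above the median on 4 arrays, with sample 2 lowest again. These probe sets had the largest SD of log2 signal among nonreceptor members, 1.38 for Ptpn12 and 1.09 for Ptpn23. Leaving out sample 2 raised the nonreceptor count above the limit from 6 to 7. Only the remaining arrays then had to exceed it, so the count could not fall.

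The FERM-domain members were below the limit. Ptpn14, a regulator of YAP, exceeded the median on 2 arrays with 166, 125, 69.8, 40.1 and 82.6. Ptpn21 had 12.9 to 100.2 and Ptpn13, a large PDZ-domain scaffold, 10.2 to 103.4, both above it on no array. Ptpn20 had 2.55 to 42.5.

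Among the broad receptor members, Ptpra and Ptpre are a related pair with short outer domains that act on Src family kinases. Ptpra had 246, 233, 196, 436 and 272, a mean of 277 ± 93.3, with sample 4 highest. Ptpre had 646, 981, 868, 1122 and 755, a mean of 875 ± 186, again with sample 4 highest. The highest Ptpre value was 1.74 times the lowest, the smallest ratio among members above the limit together with Ptprn.

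Ptprj encodes CD148, a receptor of leukocytes and platelets that acts with CD45 on Src family kinases in macrophages. Its representative had 79.9, 65.3, 27.4, 75.4 and 50.4, and its 3 probe sets were below the median on every array, with 95.02 as the highest value. Ptpro, known from podocytes, neurons and some leukocytes, had 45.6, 167, 95.8, 89.9 and 49.3, above the median in sample 2 alone. Ptprv, which RefSeq lists in mouse as a transcribed pseudogene, exceeded it in samples 1 and 4 at 122 and 106.

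The adhesion-type receptors were below the limit. Ptpru, a receptor with a MAM domain, had 209, 98.0, 350.3, 66.2 and 51.7, with an SD of log2 signal of 1.15. Samples 1 and 3 were above the median. Ptprk and Ptprm, of the same type, stayed below it, with the highest values at 93.7 and 98.3. Of the LAR type, Ptprs had 160.3, 175, 103, 86.2 and 87.4, above the median on 2 arrays, and Ptprf 33.4, 10.1, 22.1, 14.3 and 5.98. Ptprb, the VE-cadherin partner of endothelium, had 7.93 to 22.1 and Ptprg 7.11 to 19.4. These last lay under the floor of 30.0 in all 5 samples, so their values have no order on the log2 scale.

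Several probe sets covered 11 of the 32 genes, and in 3 of these, Ptpn22, Ptpra and Ptprc, they fell on different sides of the limit. The second Ptpn22 probe set had 16.3, 35.4, 22.5, 30.8 and 7.76, and the second of Ptpra 13.8, 12.9, 4.84, 41.0 and 8.53. Both were below the median on every array. Counting each probe set, 11 of 48 were above the limit, against 36.7% of all 12422.

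Ptprc had 3 probe sets that disagreed in level and in their order over samples. The second, built on the same accession as the third, had 374, 524, 148, 237 and 417, above the median on all arrays. The third had 18.8, 7.25, 11.6, 64.4 and 34.0, below it on all. Samples 3 and 4 were the lowest of the second probe set but among the 3 highest of the representative. The ratio of representative to second was 1.27, 1.94, 6.16, 5.27 and 0.85 in samples 1 to 5, so the probe sets changed unequally between arrays. The 3' over 5' ratio of the Gapdh control was likewise highest in samples 3 and 4, at 4.52 and 3.42, against 0.90, 1.06 and 2.01 in samples 1, 2 and 5. Its part in the difference was not tested.

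**Figure D3:**
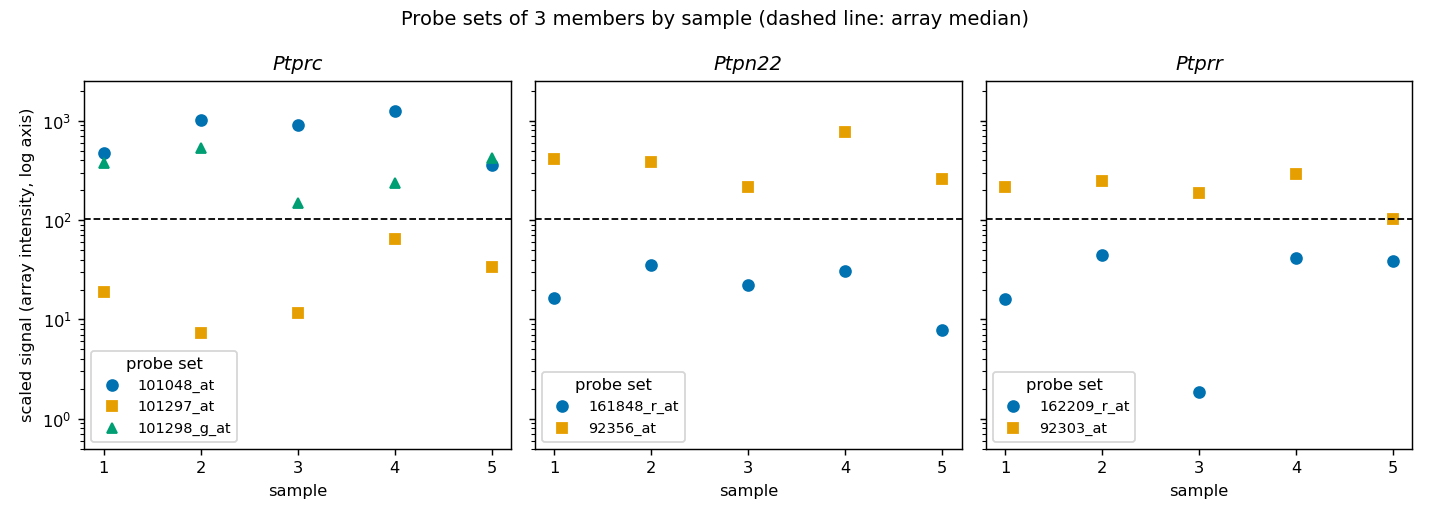
Scaled signal (log axis) of every probe set of Ptprc, Ptpn22 and Ptprr in samples 1 to 5, with the array median of 103.4 as a dashed line. In Ptprc the circles are highest in sample 4 (1252) while the triangles are lowest in sample 3 (148), and the squares stay below the line.

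For spread between samples, 15 of the 32 genes, 7 receptor and 8 nonreceptor, had a mean log2 signal above the median and were retained. The median of their SDs was 0.488 log2 units, beside 0.465 over the 4557 named genes retained. Over probe sets it was 0.532 for members and 0.472 for all 5814 retained. In a variance test built on limma's fit, 0 of 5814 probe sets were called at an adjusted p of 0.05 (0% of those tested), and thus no member. The test sets each variance against the trend fitted over all retained probe sets at like mean signal. At an unadjusted p under 0.05 there were 290 of the 5814 probe sets, and 2 of the 16 retained member probe sets. The lowest adjusted p of a member was 0.925, for Ptpn12 and Ptpn23. Each variance is judged against the others here, so the test cannot show that samples are alike. By Dixon's ratio, 1 sample stood apart in 10 of 48 member probe sets, against 17.2% of all probe sets. Each of the 10 had at least 3 samples at the floor, and without the floor 0 of 48 passed, against 6.54%.

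The retained members were set against their own 5-sample means. In sample 4, 12 of 15 lay above their mean, as did 3149 of 4557 named genes. Of the 15, 7 were highest in that sample, a count not made over named genes. The median deviation there was 0.49 log2 units, beside 0.20 over the named genes. It was 0.38 against 0.06 under quantile normalization and 0.24 against 0.19 without sample 2. In the values as deposited, where sample 1 lay on another scale, it was -0.14 against -0.44. The deviations of a gene balance out over the samples, so those of different samples are not separate findings.

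In sample 2 the nonreceptor members had a median of -0.38, beside 0.06 over named genes. There 7 of 8 lay below their mean, beside 2021 of 4557 named genes. The exception was Ptpn22. The 7 receptor members there had 4 above and 3 below, with a median of 0.19, or -0.32 beside -0.45 over named genes in the values as deposited. In sample 5, 5 of 7 receptor members lay below their mean, as did 2637 of 4557 named genes. The receptor median was -0.42, beside -0.09 over named genes, and -0.27 beside -0.07 without sample 2. The nonreceptor members had 0.14 there, or -0.21 beside -0.44 over named genes in the values as deposited. These deviations were not tested.

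**Figure D4:**
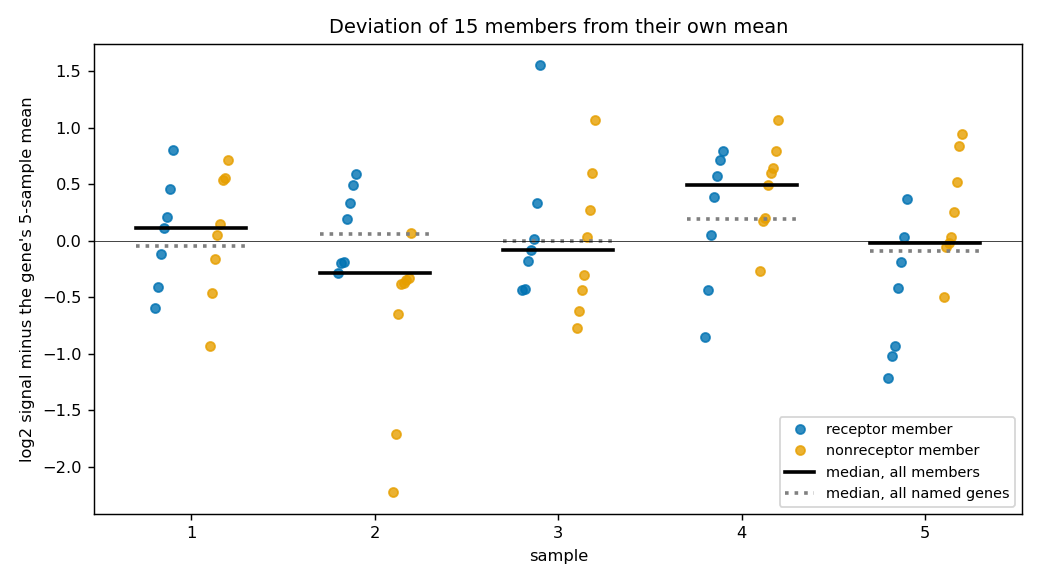
Log2 signal minus the gene's own 5-sample mean for the 15 retained members, by sample, with receptor members as the left and nonreceptor members as the right column of points, and medians over members (solid) and over 4557 named genes (dotted). The solid line is highest in sample 4 at 0.49 and lowest in sample 2 at -0.29, where Ptpn12 and Ptpn23 are the lowest points.

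Substrates and partners of these enzymes were described from lists chosen with earlier results of these data known. Of 9 Src family, Syk and related kinases, 3 were above the limit, among them Syk at 1598 ± 310.4, the kinase of immune receptors. Fgr, a myeloid Src kinase, exceeded the median on 4 arrays at 215 ± 104 and Fyn on 3 at 129.6 ± 93.2. Of the JAK and STAT proteins, substrates of PTP1B, TC-PTP and SHP-1, 6 of 8 were above it, including Jak1 at 685 ± 124, Jak2 at 497 ± 207 and Jak3 at 191 ± 78.9.

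Of the listed inhibitory receptors, 5 of 8 were above the limit. Sirpa, the myeloid receptor of CD47, had 961, 1071, 937, 1340.0 and 1091, and Pirb, a receptor of MHC class I, 812, 919, 766, 1247 and 1337. Both exceeded the median in every sample, as did Fcgr2b at 584 ± 199 and Pecam1 at 159.9 ± 41.0. Of the adaptors around SHP-2, 3 of 9 were above it, with Grb2 at 579 ± 327, while Gab1 and Gab2 were below the median on every array.

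Ligands and partners of the receptor class were above the limit in 3 of 7 genes, of which Ptprcap is 1. The galectin gene Lgals1, whose product binds CD45 sugars, had 3143 ± 898. Pleiotrophin, Ptn, a ligand of Ptprz1, was below the median on every array, at 3.69 to 66.6, and its relative Mdk exceeded it on 2. Of other tyrosine and lipid phosphatases, 8 of 10 were above the limit, among them Ptp4a2, a prenylated phosphatase, at 996 ± 168, the low molecular weight phosphatase Acp1 at 438 ± 118 and the cell cycle phosphatase Cdc25a at 389 ± 99.4.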

How the data were processed

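Per the labels, total RNA of 5 samples was hybridised to 1 array each. The deposited table holds linear intensity values for each probe set; the software and scaling are not given in the sources used here. Their trimmed mean (2% off either end) was 1000.6 in sample 1 and 200.1 in samples 2 to 5. Without the 66 controls, each array was multiplied to a common median of 103.4. Then values under 30.0 (the 25th percentile) were raised to it before log2. Genes were named through the platform annotation: 10833 probe sets had 1 symbol, 396 several and 1193 none listed. All 48 member probe sets matched the RefSeq gene table (GRCm38.p6), with 0 symbols changed. Spread was fitted with limma 3.58.1 in R 4.3.3, with trend and robust fitting. Each residual variance was set against limma's prior variance in an upper-tail F test. The largest prior degrees of freedom served for every probe set, so the robust lowering for outlying variances was not applied. Benjamini-Hochberg adjustment was over 5814 probe sets. The test was also tried on simulated normal values without a floor. The signals here were floored, so that trial does not show how the test performs on them. Single samples were examined with Dixon's ratio (0.710 for 5 samples). The number of arrays limits the precision.

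The members and lists were chosen with earlier results of these data known. Every member could be named, with the first 4 measured genes of each other list; exceptions are stated. Alternatives were other scalings, limits, floors and filters, every probe set, and leaving out each sample. Protein features were planned, but protein sequences were not used here. Of the class genes, Ptprh, Ptprq, Ptprt, Ptpn3, Ptpn4 and Ptpn7 were not analysed here.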

Additional observations from a re-analysis of the deposited data

Results flagged for a closer look

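In 10 member probe sets (20.8% of 48, against 17.2% of all 12422) 1 sample stood apart from the other 4 by Dixon's ratio on floored log2 signals. The critical value is set so that chance gives such a gap in about 1 of 20 groups of normal values without a floor. That rate does not hold for floored signals. In 6 of the 10 probe sets the other 4 samples were all raised to the floor, and the ratio was 1. These were Ptpn20, Ptprf, Ptprn2, the second probe set of Ptpra, a second probe set of Ptprv (highest in sample 1 at 48.9) and Ptprz1. The remaining 4 had 3 samples at the floor, with ratios of 0.826 for Ptpn11, 0.850 for the second Ptpn22 probe set, 0.838 for the third Ptprc probe set and 0.892 for Ptprm. In Ptprm sample 5 stood highest at 98.3, and in Ptprc sample 4 at 64.4. All signals of these probe sets were below the array median. Without the floor 0 of 48 passed, against 6.54% of all probe sets. The representative probe sets of members above the limit are not among the 10.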

How the results depend on the processing

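The count of 10 members above the limit (31.2%) was 12 at the 40th percentile (37.5%), 6 at the 75th (18.8%) and 13 when 3 of 5 arrays sufficed (40.6%). Over all named genes, 44.5% were above the limit. Their share was 51.1% at the 40th percentile, 21.7% at the 75th and 57.3% when 3 of 5 arrays sufficed. The member count was 11 with every probe set counted, and 10 to 11 over the sets of 4 samples. A lower limit, 3 of 5 arrays, every probe set or leaving out a sample could only keep or raise a count. Receptor members fell from 4 to 2 at the 75th percentile. Neural members went from 1 to 2 at the 40th percentile, to 0 at the 75th and to 2 when 3 of 5 arrays sufficed, and were 1 to 2 over the sets of 4 samples. Blood-restricted members, already at 3 of 3 genes, could not rise further, and were 2 at the 75th percentile. Of their probe sets, 4 of 6 were above the limit. The variance test called 0 members under every alternative, with a lowest adjusted p from 0.264 to 0.945. With a floor at the 10th percentile and no filter it called 10 of 12422 probe sets. In the values as deposited, where sample 1 had a higher scale, the median SD was 1.24 against 0.49, Dixon's ratio passed for 21 probe sets against 10 (0 without a floor), and the median deviations of members in samples 1 to 5 were 2.03, -0.80, -0.51, -0.14 and -0.37 against 0.11, -0.29, -0.09, 0.49 and -0.02. Other scalings kept these within their own SD over samples. Without sample 4 the deviation in sample 2 was -0.19. No paired analysis was possible because all samples form 1 group. No background signal was given for these arrays, so how far low members stand above background is unknown.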

Other observations

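The sort gene Flt3 had 571, 1212, 353, 1268 and 318 in samples 1 to 5. Samples 2 and 4 were highest and sample 5 lowest, as for the representative Ptprc probe set. The second Ptprc probe set differed, being highest in samples 2 and 5 and lowest in sample 3. In sample 3 Flt3 was also low, at 353, while the representative Ptprc probe set had 913. Itgam, the other sort gene, had 789, 546, 223, 343 and 486, with sample 1 highest. With 5 samples no correlation was computed. The inositol phosphatase gene Inpp5d, a partner of inhibitory receptors named after its values were seen, had 645, 616, 637, 678 and 676, an SD of 26.6 around a mean of 651. Listed promoter windows of members held a median of 19 CG dinucleotides, against 7 over all windows. Those of the blood-restricted members held a median of 4 (5 windows, some overlapping) and those of the neural members 13 (10 windows).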
